A study of Mus musculus with 60 samples.

Results

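TRAV7-1 to TRAV7-6 are the 6 V segments of the mouse TRAV7 family whose names carry no D or N after the 7. They were among 109 TCRA V segments listed in the tables of T cell receptor alpha (TCRA) sequences, and a sequence was counted for a member when its V segment was called TRAV7-1, TRAV7-2, TRAV7-3, TRAV7-4, TRAV7-5 or TRAV7-6. A further 7 segments, the TRAV7D and TRAV7N copies of these genes, were kept apart. The study followed donor T cells in graft-versus-host disease, in which transplanted T cells damage recipient tissue. WT BALB/c mice were lethally irradiated and received T cell-depleted bone marrow of WT C57BL/6 donors together with CD90.2+ T cells of C57BL/6 donors that were WT, STAT3-/- (STAT3ko) or STAT3-/-PD-1-/- (STAT3koPD-1ko), a hematopoietic cell transplantation (HCT). STAT3 carries cytokine signals to the nucleus, and PD-1 restrains T cell activation. Per the methods of the study, STAT3 was deleted by CD4-driven Cre, which in thymocytes acts in the precursors of both CD4 and CD8 T cells. Donor-type H-2Kb+ CD4 and CD8 T cells were sorted, and each cell type had 15 TCRA libraries. Of these, 3 were titled naive (spleen, 1 of each genotype) and are labelled before HCT here, after the wording of the study. The other 12 came from liver and gut on day 6 (2 of each tissue and genotype, each from lymphocytes pooled from 3 recipients). The tables hold only receptor sequences, so the sort could not be checked against marker genes.

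The alpha chain gene is assembled in the thymus by joining 1 V segment to 1 J segment. The V segment encodes the framework, the first and second complementarity determining regions and the first bases of the third (CDR3), and the join itself forms the rest of CDR3, the region that mostly meets the peptide. Joining starts between V and J segments that lie close together, and later rounds on the same chromosome replace the join with V segments and J segments that lie farther apart. CD4 T cells see peptides on MHC class II and CD8 T cells on MHC class I, and V segments are known to be used unevenly by these lineages. In C57BL/6 mice the central part of the V array is repeated, and the D and N copies lie in these repeats.

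On chromosome 14 of GRCm38, the members lie in the order of their numbers on the plus strand, each with a leader exon, an intron and a V exon. TRAV7-1 (chr14:52654817-52655328) lies farthest from the J cluster, at 1500 kb from Traj61, the first J gene. TRAV7-2 (chr14:53390635-53391142), TRAV7-3 (chr14:53443249-53443839), TRAV7-4 (chr14:53461099-53461738) and TRAV7-5 (chr14:53530786-53531313) follow at 764, 711, 693 and 624 kb. TRAV7-6 (chr14:53716716-53717291) lies nearest, at 438 kb. The last 30 bases of the V exons in the GENCODE transcripts are shown because they set where CDR3 begins and which members a read across the join can tell apart, with the bases that belong to CDR3 in capitals.

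TRAV7-1 (chr14:52655299-52655328): actctgctctctacttcTGTGCAGTGAGCA
TRAV7-2 (chr14:53391113-53391142): gactctgctctctacctcTGTGCAGCAAGC
TRAV7-3 (chr14:53443810-53443839): actctgctctctacctcTGTGCAGTGAGCA
TRAV7-4 (chr14:53461709-53461738): cgctctctacttcTGTGCAGCTAGTGAGCA
TRAV7-5 (chr14:53531284-53531313): actctgctgtctacctcTGTGCAGTGAGCA
TRAV7-6 (chr14:53717262-53717291): actccgctgtctacctcTGTGCAGTGAGCA
TRAV7D-2 (chr14:52684443-52684472): actctgctctctacctcTGTGCAGCAAGCA

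TRAV7-1, TRAV7-3, TRAV7-5 and TRAV7-6 ended in the same 13 bases, while TRAV7-4 carried 17 germline bases of CDR3. Over the coding sequence the members were 81.3% (TRAV7-2 with TRAV7-6) to 92.1% (TRAV7-1 with TRAV7-4) identical to each other. The D copies were closer still. TRAV7-2 and TRAV7D-2 were identical over the 336 bases annotated for TRAV7-2, TRAV7-3 differed from TRAV7D-3 at 2 bases of 337, and TRAV7-4 from TRAV7D-4 at 2 of 341. The calls of TRAV7-3, TRAV7-4 and their D partners are therefore uncertain, and those of TRAV7-2 and TRAV7D-2 cannot be told apart by sequence.

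Each value was a share of a library's reads, and the tables listed only clonotypes found in at least 2 of 18 joined libraries. The libraries of a table were joined by CDR3 protein sequence, and each of the 62533 CDR3 sequences of the CD4 table and the 59365 of the CD8 table stands there once, under 1 V and 1 J name for all its libraries. A clonotype stands for 1 such entry. Where receptors with different V segments share a CDR3, their reads are therefore listed under a single V name, and the tables need not give the same one. Of 25521 CDR3 sequences listed in both tables, 29.9% had the same V name and 99.9% the same J name, and they made up 69.1% to 83.6% of the listed sequence of CD4 libraries and 69.1% to 83.6% of that of CD8 libraries. Comparisons between the cell types were therefore repeated, after the data had been seen, with the names of the CD4 table for these CDR3 sequences in both tables, with the names of the CD8 table in both, and with only the CDR3 sequences listed in 1 table. Usage was the percentage of the listed TCRA sequence of a library that carried a segment. The read depth is unknown, and a segment or clonotype at 0 is only listed at 0. Fewer cells with a segment and less receptor RNA per cell cannot be told apart. The listed clonotypes made up 79.5% to 83.5% of the reads in the gut replicate 2 libraries of both cell types and 90.8% to 99.1% in all other libraries. Of the clonotypes of TRAV7-1 to TRAV7-6 in a library labelled before HCT, 61.5% to 88.8% were also listed in liver replicate 1 of the same genotype and cell type and 73.7% to 83.0% in gut replicate 1, against 34.7% to 54.6% in liver replicate 2 and 25.8% to 48.8% in gut replicate 2. Libraries labelled before HCT thus shared more with the number 1 libraries of day 6, and depth moves such shares too. The methods of the study speak of 2 batches, each of 3 mice per sample, without tying them to the replicate numbers. Batch could therefore not be fitted. The p-values measure only the spread between these libraries.

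By the listed names, TRAV7-5 was the highest of the 6 members in every library and TRAV7-2 was at or near 0, although sequence of TRAV7-2 may stand under TRAV7D-2. In CD4 cells the usage of TRAV7-5 ran from 5.16% to 12.4% with a median of 6.85% over 15 libraries, and in CD8 cells from 3.75% to 6.13% with a median of 4.499%. TRAV7-4 came next, at 1.80% to 3.26% (median 2.72%) in CD4 cells and 1.36% to 2.35% (median 2.08%) in CD8 cells. Its range did not overlap that of TRAV7-5 in either cell type. The other members were listed at lower levels. TRAV7-3 stood at 0.465% to 1.09% (median 0.805%) in CD4 cells and at 0.826% to 1.39% (median 1.22%) in CD8 cells. TRAV7-6 stood at 0.445% to 1.1005% (median 0.744%) in CD4 cells and at 0.275% to 0.501% (median 0.415%) in CD8 cells. TRAV7-1 stood at 0.394% to 0.838% (median 0.508%) in CD4 cells and at 0.226% to 0.697% (median 0.291%) in CD8 cells. In CD4 cells the ranges of TRAV7-3, TRAV7-6 and TRAV7-1 overlapped from one to the next, and TRAV7-3 was above TRAV7-6 in only 6 of 15 libraries. In CD8 cells TRAV7-3 was above TRAV7-6 in 15 of 15 libraries with no overlap, and below TRAV7-4 in each, though those ranges overlapped. This order followed the names. With the names of the CD8 table, TRAV7-5 in CD4 cells ran from 4.01% to 7.51% and TRAV7-4 from 3.28% to 5.05%, with overlap, and with the names of the CD4 table the CD8 ranges of TRAV7-3 (0.679% to 1.53%) and TRAV7-6 (0.360% to 0.849%) overlapped.

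**Figure D1:**
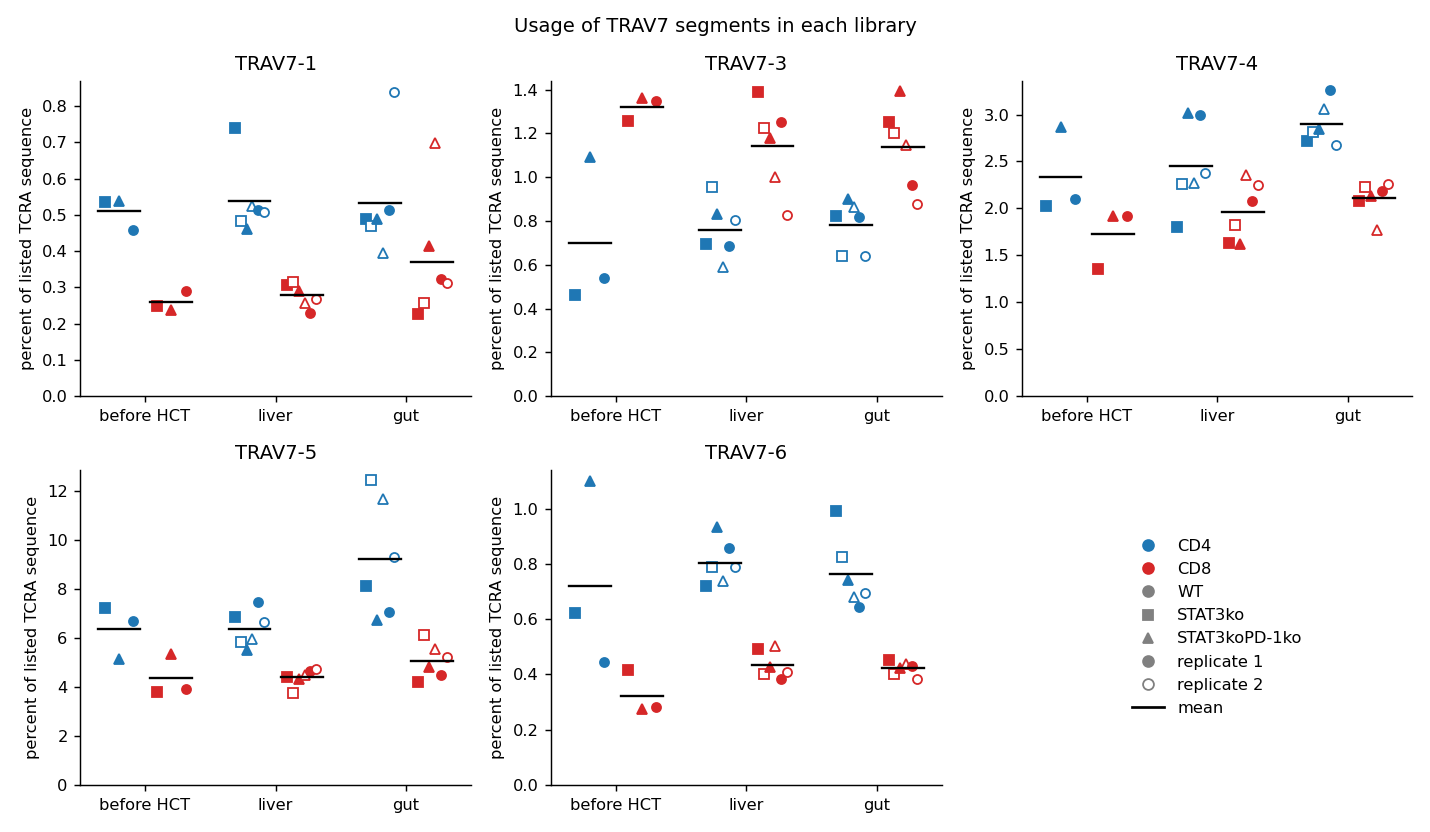
Usage of TRAV7-1, TRAV7-3, TRAV7-4, TRAV7-5 and TRAV7-6 in each of 30 TCRA libraries, as percent of the listed TCRA sequence, by tissue (x axis), cell type (color), genotype (symbol) and replicate number (filled or open), with the mean of each tissue as a line. By the V names of each table, TRAV7-3 lies higher in CD8 libraries and TRAV7-6 higher in CD4 libraries, and the 3 CD4 gut replicate 2 libraries have the highest TRAV7-5 usage, from 9.31% to 12.4%.

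TRAV7-2 was listed with 2 clonotypes in CD4 cells and 3 in CD8 cells, with a usage of at most 0.00326% and 0.00468%. Its partner of identical sequence, TRAV7D-2, was listed at 5.47% to 8.82% in CD4 cells and at 1.88% to 2.88% in CD8 cells. Sequence listed under TRAV7D-2 can come from either gene, and TRAV7D-2 was above TRAV7-5 in 8 of 15 CD4 libraries and in 0 of 15 CD8 libraries, so the place of TRAV7-2 in the order is not known. TRAV7-5 had the most clonotypes, 2262 in CD4 cells and 1557 in CD8 cells, followed by TRAV7-4 with 1525 and 1107, TRAV7-3 with 595 and 551, TRAV7-6 with 517 and 333, and TRAV7-1 with 357 and 225.

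The comparison of CD4 with CD8 cells asked whether the lineages used the members differently. TRAV7-4, TRAV7-5 and TRAV7-6 were higher in CD4 cells under every set of V names, while the lower usage of TRAV7-3 in CD4 cells was not seen under each. The tables of the cell types were joined separately by the authors. Usage was tested with limma on log2(percent + 0.1) over all 30 libraries with tissue and genotype in the fit, for segments of at least 0.5% mean usage, and differences on this scale understate those of rare segments. Of 45 segments tested, 39 (86.7%) differed at an adjusted p under 0.05, so that a difference between the cell types was the rule. By the names of each table, the 4 members tested all passed. TRAV7-6 was higher in CD4 cells by 0.77 ± 0.076 (SE) on the log2 scale (limma adjusted p = 6.1e-11) and in 15 of 15 libraries matched for tissue, genotype and number, with a mean of 0.772% against 0.408%. It reached the usage minimum only through the CD4 libraries, and in a fit without the minimum the difference was the same (adjusted p = 1.2e-09). TRAV7-5 was higher in CD4 cells by 0.65 ± 0.090 (adjusted p = 7.9e-08) and in 14 of 15 matched libraries, with a mean of 7.52% against 4.66%. TRAV7-4 was higher in CD4 cells by 0.38 ± 0.069 (adjusted p = 7.5e-06), also in 14 of 15, with a mean of 2.61% against 1.97%. TRAV7-3 went the other way and was lower in CD4 cells by -0.59 ± 0.085 (adjusted p = 1.5e-07), in 15 of 15 matched libraries, with a mean of 0.757% against 1.18%. TRAV7-1 and TRAV7-2 did not reach the usage minimum. Tested without it, TRAV7-1 was higher in CD4 cells by 0.64 ± 0.0995 (adjusted p = 4.7e-06), and TRAV7-2, at a difference of -0.0026 ± 0.019, did not pass (adjusted p = 0.91).

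With 1 set of names for CDR3 sequences in both tables, 77.8% (CD4 names) and 68.9% (CD8 names) of the 45 segments passed, and 77.8% passed on CDR3 sequences of 1 table only. In that order, TRAV7-4 was higher in CD4 cells by 0.93, 0.99 and 1.12, more than with the separate names (limma adjusted p of at most 5.9e-08). TRAV7-5 was higher by 0.48 (adjusted p = 6.7e-06), 0.16 (adjusted p = 0.036) and 0.95 (adjusted p = 2.2e-07), and TRAV7-6 by 0.27 (adjusted p = 0.0045), 0.51 (adjusted p = 1.2e-07) and 0.52 (adjusted p = 0.0012). These fits kept the segments of the fit by the names of each table, which TRAV7-6 had entered only through the CD4 libraries. They were not run without the usage minimum. TRAV7-3 was lower by -0.37 with the CD4 names (adjusted p = 0.0038), but stood at 0.013 with the CD8 names (adjusted p = 0.87) and at 0.16 on CDR3 sequences of 1 table only (adjusted p = 0.38). Its direction thus differed between the sets of names. TRAV7-1, not in these fits, had means of 0.530% in CD4 cells and 0.434% in CD8 cells with the CD4 names and of 0.426% and 0.311% with the CD8 names.

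These differences are relative to the sum of all segments. The median difference over the 4 members was 0.51 and over all 45 segments 0.47, since 28 segments were higher in CD4 cells and 11 in CD8 cells. When each library was centred on its median segment, a scaling that moved CD4 against CD8 libraries by 0.67 on the log2 scale and was added after the data had been seen, 12 segments were higher in CD4 cells and 21 in CD8 cells. On that scale TRAV7-3 stayed lower in CD4 cells (-1.26), TRAV7-4 turned to lower in CD4 cells (-0.29, adjusted p = 0.0015), and TRAV7-5 (-0.022, adjusted p = 0.85) and TRAV7-6 (0.099, adjusted p = 0.29) no longer passed. The shift is the same for every segment, so it could only enlarge the difference of TRAV7-3 and lessen or turn those of the others. It is no separate test of a member's direction. When each clonotype was counted once, the difference of TRAV7-3 shrank to -0.12 (adjusted p = 0.0021) and that of TRAV7-6 to 0.47 (adjusted p = 1.1e-11).

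TRAJ genes are numbered downwards along the locus, and all 60 annotated Traj genes followed that order, so a high mean TRAJ number means joins to J segments near the V array. TRAV7-6, the member nearest to the J cluster, had the highest mean TRAJ number of the 5 measurable members in each library by the listed names, at 32.3 to 41.2 (median 36.6) in CD4 cells and 34.3 to 43.6 (median 40.9) in CD8 cells. TRAV7-5 followed at 26.2 to 31.8 (median 30.6) in CD4 cells and 27.2 to 32.5 (median 30.7) in CD8 cells, with no overlap with TRAV7-6 in either cell type. TRAV7-6 also had the highest median with the names of the CD4 table in CD8 cells (36.7, TRAV7-5 at 28.98) and with the names of the CD8 table in CD4 cells (41.1, TRAV7-5 at 31.6). TRAV7-4, TRAV7-3 and TRAV7-1 had lower medians, with ranges that overlapped each other and that of TRAV7-5. TRAV7-5 was above TRAV7-1 in 12 of 15 CD4 libraries, and TRAV7-1 reached 32.0 in CD4 cells and 32.1 in CD8 cells. Their medians were 27.8, 24.95 and 28.1 in CD4 cells and 24.2, 25.2 and 24.4 in CD8 cells. Over all segments the mean TRAJ number of a library was 28.2 to 31.9 in CD4 cells and 26.5 to 29.5 in CD8 cells. As a description across segments, which share libraries, distance to the J cluster and mean TRAJ number had a Spearman rho of -0.76 over 43 segments in CD4 cells and -0.79 over 38 in CD8 cells, the segments of at least 0.5% usage found by name in GENCODE.

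**Figure D2:**
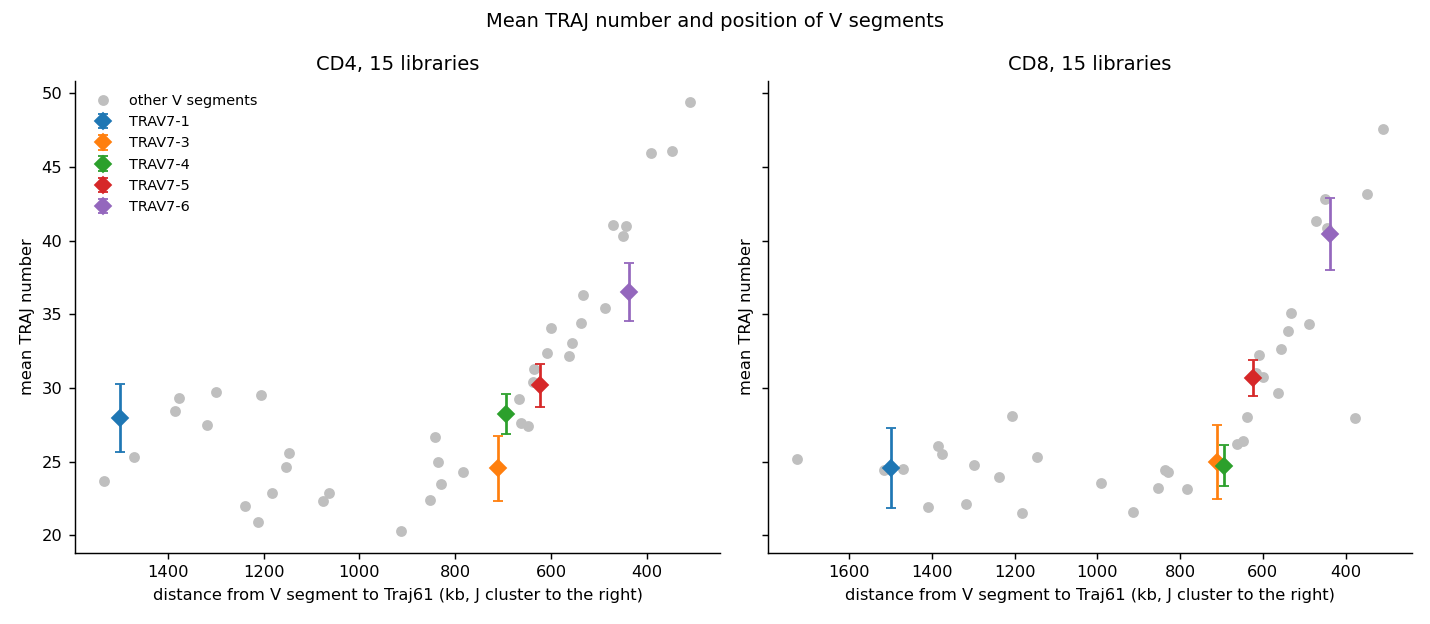
Mean TRAJ number (mean of 15 libraries, bars are SD for the TRAV7 members) against the distance of each V segment from Traj61 in kb, with the J cluster to the right, for CD4 (left) and CD8 (right) libraries. TRAV7-6, at 438 kb, stands at 36.5 in CD4 cells and 40.4 in CD8 cells, above the members farther away.

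Grouped by position, 38.9% ± 7.81 (SD, n = 15) of TRAV7-6 sequence in CD4 cells and 51.6% ± 12.4 in CD8 cells carried a V-near J segment (TRAJ41 and above), against 22.1% ± 2.55 and 21.02% ± 1.52 for all segments. V-far J segments (TRAJ20 and below) made up 2.70% ± 2.29 and 5.43% ± 2.91 of TRAV7-6 sequence. TRAV7-3 had a low V-near share, at 8.37% ± 3.13 in CD4 cells and 7.02% ± 3.74 in CD8 cells, as had TRAV7-4, at 10.98% ± 3.61 and 9.90% ± 4.09, and TRAV7-1, at 9.34% ± 5.62 and 11.2% ± 7.46. The V-far share was 34.9% ± 13.0 and 29.3% ± 7.59 for TRAV7-3 and 21.9% ± 6.29 and 28.2% ± 5.03 for TRAV7-4, against 24.03% ± 2.63 and 24.8% ± 2.05 for all segments. For TRAV7-1, the V-far share was 21.1% ± 8.22 in CD4 cells and 36.6% ± 11.1 in CD8 cells.

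The differences in mean TRAJ number between CD4 and CD8 cells depended on the names. By the names of each table it differed in 24 of 45 segments (53.3%) and in 2 of the 4 members tested, in opposite directions. TRAV7-4 was listed with J segments nearer the V array in CD4 cells, by 3.52 ± 0.51 (SE) TRAJ numbers (limma adjusted p = 3.3e-06) and in 14 of 15 matched libraries. TRAV7-6 was listed with J segments farther away in CD4 cells, by -3.93 ± 0.71 (adjusted p = 7.8e-05) and with the lower value in CD4 cells in 13 of 15. TRAV7-5 (-0.50 ± 0.53, adjusted p = 0.42) and TRAV7-3 (-0.45 ± 0.67, adjusted p = 0.60) did not pass. TRAV7-1 was below the usage minimum of this fit, and with a minimum of 0.1% its difference was 3.39 ± 0.92 (adjusted p = 0.0051), while with 1 set of names its means in CD4 and CD8 cells were 27.96 and 25.6 (CD4 names) and 26.02 and 24.6 (CD8 names). With each clonotype counted once, the difference of TRAV7-6 was -0.97 (adjusted p = 0.059) and that of TRAV7-4 was 0.91 (adjusted p = 0.0016). Neither passed with 1 set of names. TRAV7-4 then differed by 0.033 with the CD4 names (adjusted p = 0.95), by 0.77 with the CD8 names (adjusted p = 0.19) and by 0.89 on CDR3 sequences of 1 table only (adjusted p = 0.69). TRAV7-6 differed by -0.21 (adjusted p = 0.80), 0.27 (adjusted p = 0.74) and -0.020 (adjusted p = 0.99), and TRAV7-5 passed with the CD4 names alone (1.22, adjusted p = 0.011).

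**Figure D3:**
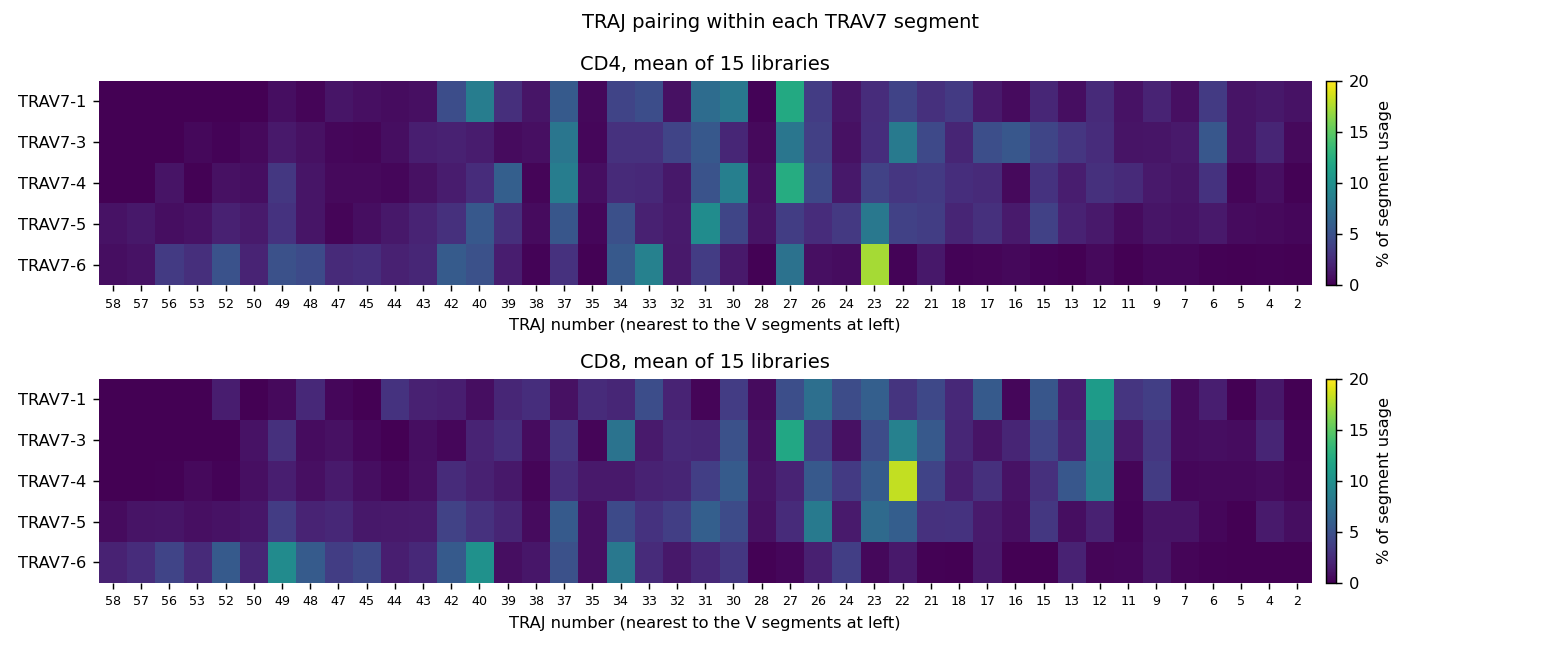
Share of the usage of TRAV7-1, TRAV7-3, TRAV7-4, TRAV7-5 and TRAV7-6 (rows; TRAV7-2, with at most 3 clonotypes, is left out) that carried each TRAJ segment (columns, V-near at left), as the mean of 15 CD4 libraries (top) and 15 CD8 libraries (bottom), by the V names of each table, on a color scale from 0 to 20%. The brightest cells are TRAV7-6 with TRAJ23 in CD4 cells (17.3%) and TRAV7-4 with TRAJ22 in CD8 cells (18.2%).

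Usage was also compared for single V-J pairs, first by the names of each table. Of 508 V-J pairs with a mean usage of at least 0.05%, 400 (78.7%) differed between CD4 and CD8 cells on log2(percent + 0.01). Of the 58 pairs of the members tested, 43 differed, 32 of them higher in CD4 cells and 11 higher in CD8 cells, against 236 and 164 over all pairs. Centred on the median pair, these were 24 and 12 for the members and 208 and 183 over all pairs. A pair could reach the minimum through 1 cell type alone, which favours a difference in its direction. Of the 58 pairs, 37 reached 0.05% in both cell types, of which 18 were higher in CD4 cells, 6 were higher in CD8 cells and 13 were not called. Among these, TRAV7-5 had 15 higher in CD4 cells and 2 higher in CD8 cells of 26, TRAV7-4 had 3 and 2 of 9, and both pairs of TRAV7-3 were higher in CD8 cells. The pairs of all segments that reached the minimum in both cell types were not counted apart. The counts of the 37 therefore cannot be set against those of the 508. The pairs that reached it in 1 cell type only, 16 in CD4 cells and 5 in CD8 cells, are given below as descriptions, without p-values.

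Fewer pairs kept their call with 1 set of names. Of the 43 pairs of the members called, 11 of the 32 higher in CD4 cells and 0 of the 11 higher in CD8 cells were called in the same direction with the names of each table, with the CD4 names, with the CD8 names and on CDR3 sequences of 1 table only. In each single fit, 65.9% to 78.7% of all 508 pairs were called. How many of all 508 pairs kept their call in every fit was not counted, so the counts of the members have no like background. The 11 were TRAV7-4 with TRAJ15, TRAJ18, TRAJ27, TRAJ31, TRAJ37, TRAJ39 and TRAJ40 and TRAV7-5 with TRAJ6, TRAJ17, TRAJ39 and TRAJ53. They include pairs that reached the minimum only in CD4 cells, among them TRAV7-4 with TRAJ27 and TRAJ39 and TRAV7-5 with TRAJ6. Of all TRAV7-4 pairs called higher in CD4 cells, only 3 reached it in both cell types. The fits with other names kept the same pairs, so a kept call of a pair that reached it in 1 cell type is a description only.

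By the names of each table, TRAV7-6 with TRAJ23 reached the minimum only in CD4 cells. It was at 0.0259% to 0.361% (median 0.105%) of CD4 libraries and 0 to 0.0109% of CD8 libraries, where 6 of 15 listed it. The ranges did not overlap, and the fitted difference was 3.39 ± 0.25 (SE, log2 scale). With the CD4 names it was 0.73, with the CD8 names 0.18 and on CDR3 sequences of 1 table only 0.37. TRAV7-4 with TRAJ27, which reached the minimum only in CD4 cells, was at 0.146% to 0.935% (median 0.250%) in CD4 cells and 0.00644% to 0.145% (median 0.0406%) in CD8 cells, a difference of 2.78 ± 0.24 with ranges that did not overlap, and of 2.95, 2.35 and 2.48 in the same 3 fits. TRAV7-4 with TRAJ39 also reached the minimum only in CD4 cells, where it was higher by 2.34 ± 0.27 (1.79, 1.70 and 2.68 in those fits), and made up 6.04% of the segment there against 1.29% in CD8 cells. TRAV7-4 with TRAJ22 reached it in both and was lower in CD4 cells, at 0.0192% to 0.203% (median 0.0681%) against 0.208% to 0.579% (median 0.341%), again with no overlap (-2.10 ± 0.20, limma adjusted p = 1.1e-11), but its difference was -0.41 with the CD4 names (adjusted p = 0.075), turned to 0.57 with the CD8 names (adjusted p = 0.0055) and was -1.79 on CDR3 sequences of 1 table only (adjusted p = 3.7e-05). By the names of each table, 18.2% of TRAV7-4 sequence in CD8 cells and 3.15% in CD4 cells carried TRAJ22, while 1.97% and 12.4% carried TRAJ27.

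TRAV7-5 with TRAJ40, which reached the minimum in both cell types, was higher in CD4 cells by 1.68 ± 0.24 (limma adjusted p = 8.7e-08), and by 0.45 with the CD8 names, where it did not pass (adjusted p = 0.11). TRAV7-5 with TRAJ6 reached it only in CD4 cells (a difference of 2.10 ± 0.24) and TRAV7-5 with TRAJ47 only in CD8 cells (-2.06 ± 0.34). With the CD4 names, the CD8 names and CDR3 sequences of 1 table only they were 1.70, 0.50 and 1.54 for TRAJ6 and -0.49, -1.35 and -1.66 for TRAJ47. TRAV7-3 with TRAJ27 was lower in CD4 cells by -1.11 ± 0.29 (limma adjusted p = 0.00070) by the names of each table, but higher by 0.86 with the CD4 names (adjusted p = 0.0034). TRAV7-3 with TRAJ12 (-2.13 ± 0.26) and TRAJ34 (-1.76 ± 0.27) reached the minimum only in CD8 cells, and with the CD4 names they stood at -0.33 and 0.59. With each clonotype counted once, TRAV7-3 with TRAJ27 turned to 0.10 (adjusted p = 0.48). The sizes of the pair differences depended on the pseudocount. With 0.1 in place of 0.01 the differences were 1.11 for TRAV7-6 with TRAJ23, 1.53, 1.00 and -1.34 for TRAV7-4 with TRAJ27, TRAJ39 and TRAJ22, 1.14, 0.77 and -0.72 for TRAV7-5 with TRAJ40, TRAJ6 and TRAJ47, and -0.76, -0.60 and -0.57 for TRAV7-3 with TRAJ12, TRAJ34 and TRAJ27, each in the direction that the names of each table gave. The most used pair of TRAV7-5 was that with TRAJ31 in CD4 cells, at 0.716% ± 0.299 (SD, n = 15), and with TRAJ26 in CD8 cells, at 0.379% ± 0.174. For TRAV7-1 it was TRAJ27 in CD4 cells and TRAJ12 in CD8 cells, for TRAV7-3 TRAJ27 in both, and for TRAV7-6 TRAJ40 in CD8 cells.

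In some of these pairs 1 clonotype held a large share. The most frequent clonotype of TRAV7-1, TRAV7-3, TRAV7-4, TRAV7-5 and TRAV7-6 in each table is shown by its CDR3, from the first base of the cysteine codon. The nucleotides are those that the tables give for the amino acid clonotype. Capitals mark bases that match neither the germline V end above nor the germline J segment of GENCODE, where the V match was extended first. An entry without capitals thus matches the germline of its listed V and J names throughout, which does not show that these templated it. TRAV7-2 is left out because its usage rested on 2 and 3 clonotypes. The first of these carried TRAJ37 in CD4 cells, was listed in 7 of 15 libraries and had 6 bases that matched neither end, and the first in CD8 cells carried TRAJ48, was listed in 4 of 15 and did not start at the cysteine codon.

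TRAV7-1 with TRAJ40, CD4: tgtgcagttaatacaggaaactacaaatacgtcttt
TRAV7-3 with TRAJ16, CD4: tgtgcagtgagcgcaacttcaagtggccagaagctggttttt
TRAV7-4 with TRAJ27, CD4: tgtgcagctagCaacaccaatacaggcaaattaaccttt
TRAV7-5 with TRAJ21, CD4: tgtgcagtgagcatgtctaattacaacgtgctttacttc
TRAV7-6 with TRAJ23, CD4: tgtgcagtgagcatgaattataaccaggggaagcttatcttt
TRAV7-1 with TRAJ12, CD8: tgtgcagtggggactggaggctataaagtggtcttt
TRAV7-3 with TRAJ27, CD8: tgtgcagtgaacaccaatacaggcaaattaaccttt
TRAV7-4 with TRAJ22, CD8: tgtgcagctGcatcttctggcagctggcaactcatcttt
TRAV7-5 with TRAJ26, CD8: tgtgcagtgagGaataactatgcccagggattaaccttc
TRAV7-6 with TRAJ49, CD8: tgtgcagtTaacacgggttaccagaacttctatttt

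None of the 10 shown had more than 1 base outside the germline ends of its listed V and J names. They encoded 12 to 14 amino acids. The TRAV7-4 with TRAJ27 clonotype was listed in 15 of 15 CD4 libraries, at 0.0584% to 0.695% (median 0.135%), and held 61.1% of its pair. The CD8 table listed the same CDR3 protein under TRAV7D-2, in 13 of 15 libraries at up to 0.0186% (median 0.00532%). The TRAV7-6 with TRAJ23 clonotype was listed in 15 of 15 CD4 libraries, at 0.0244% to 0.338% (median 0.0888%), and held 85.7% of its pair. The CD8 table listed it under TRAV3-3, in 15 of 15 libraries at 0.0246% to 0.150% (median 0.0559%). The TRAV7-4 with TRAJ22 clonotype was listed in 15 of 15 CD8 libraries, at 0.0578% to 0.344% (median 0.160%), and held 49.8% of its pair. The CD4 table listed it under TRAV10, in 15 of 15 libraries at 0.0901% to 0.507% (median 0.210%), a range that overlapped that of CD8 cells. With each clonotype counted once, the difference of TRAV7-4 with TRAJ27 was 1.20 and that of TRAV7-4 with TRAJ22 was -0.58 (limma adjusted p = 1.8e-05), in the same directions. All 10 CDR3 proteins were also in the table of the other cell type, in 12 to 15 of its libraries. That of TRAV7-6 with TRAJ49 had the same V name there, 4 stood under another TRAV7 name and 5 under a V segment of another family. These clonotypes were chosen for their frequency in 1 table, so their frequency in the other is a description.

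Among all clonotypes of TRAV7-1, TRAV7-3, TRAV7-4, TRAV7-5 and TRAV7-6, those listed in all 15 libraries were close to the germline of their listed V and J names. The 85 such clonotypes of CD4 cells had a median of 1 base that matched neither end, and 54.1% had 0 or 1, against a median of 4 and 12.7% in the 4718 clonotypes of 2 to 14 libraries. In CD8 cells the 50 clonotypes of all 15 libraries had a median of 1 and 66.0% had 0 or 1, against 3 and 15.7% of 3463. Of the CDR3 proteins listed under TRAV7-1, TRAV7-3, TRAV7-4, TRAV7-5 and TRAV7-6, 32.1% to 49.8% in the CD4 table and 48.0% to 56.8% in the CD8 table were also in the other table under any V name, against 40.8% and 43.0% for all segments. Most had another V name there. Counted with the same V and J names, sharing was lower for the rare members. Of TRAV7-5 clonotypes, 11.5% of the CD4 list and 16.7% of the CD8 list were in the other table, as were 8.07% and 11.1% of TRAV7-4 clonotypes, 4.26% and 6.61% of TRAV7-6, 2.86% and 3.09% of TRAV7-3, and 1.96% and 3.11% of TRAV7-1 clonotypes. For all segments it was 12.2% and 12.8%. Of the CDR3 proteins that were in both tables, the V name was the same for 23.2% (CD4 list) and 29.6% (CD8 list) of TRAV7-5 and 25.1% and 20.8% of TRAV7-4. It was the same for 10.3% and 13.4% of TRAV7-6, 6.14% and 5.99% of TRAV7-3 and 4.27% and 6.48% of TRAV7-1, against 29.9% for all segments. What part the length of the lists had was not tested.

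CDR3 length, the usage-weighted mean number of amino acids, had its highest median in TRAV7-4, which was above TRAV7-6, the next, in 13 of 15 libraries of each cell type, with ranges that overlapped. It was 13.58 to 13.99 (median 13.8) in CD4 cells and 13.3 to 13.9 (median 13.6) in CD8 cells. CDR3 length differed between CD4 and CD8 cells in 23 of 45 segments (51.1%) and in 3 of the 4 members tested, each longer in CD4 cells by the names of each table. The difference was largest in TRAV7-3, at 13.2 ± 0.255 (SD, n = 15) in CD4 cells against 12.6 ± 0.162 in CD8 cells, which is 0.65 ± 0.076 (SE) amino acids (limma adjusted p = 5.5e-08) and held in 15 of 15 matched libraries. TRAV7-4 was longer by 0.24 ± 0.056 (adjusted p = 0.00090) and TRAV7-5 by 0.21 ± 0.041 (adjusted p = 0.00015), while TRAV7-6 missed the threshold at 0.13 ± 0.067 (adjusted p = 0.092). With each clonotype counted once, the difference was 0.27 for TRAV7-3, 0.35 for TRAV7-4 and 0.18 for TRAV7-5, so the order of sizes depended on the counting. With the CD4 names, the CD8 names and CDR3 sequences of 1 table only, TRAV7-3 stayed longer in CD4 cells by 0.28, 0.21 and 0.50 (adjusted p of at most 0.020) and TRAV7-5 by 0.25, 0.25 and 0.46 (adjusted p of at most 0.0025). TRAV7-4 turned to -0.16, -0.060 and -0.28 and did not pass (adjusted p of at least 0.061), and TRAV7-6 stood at 0.28 (adjusted p = 0.00066), 0.13 (adjusted p = 0.11) and 0.49 (adjusted p = 0.020). Over all segments the mean was shorter in CD4 libraries (13.3 to 13.4) than in CD8 libraries (13.5 to 13.7), but segment by segment 14 of the 23 called were longer in CD4 cells. Among the copies, TRAV7D-2, TRAV7D-3, TRAV7D-4, TRAV7N-4 and TRAV7N-6 were also longer in CD4 cells by the names of each table, by 0.15 to 0.37 amino acids (limma adjusted p of at most 0.045), of which TRAV7N-6 alone passed with each set of names.

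**Figure D4:**
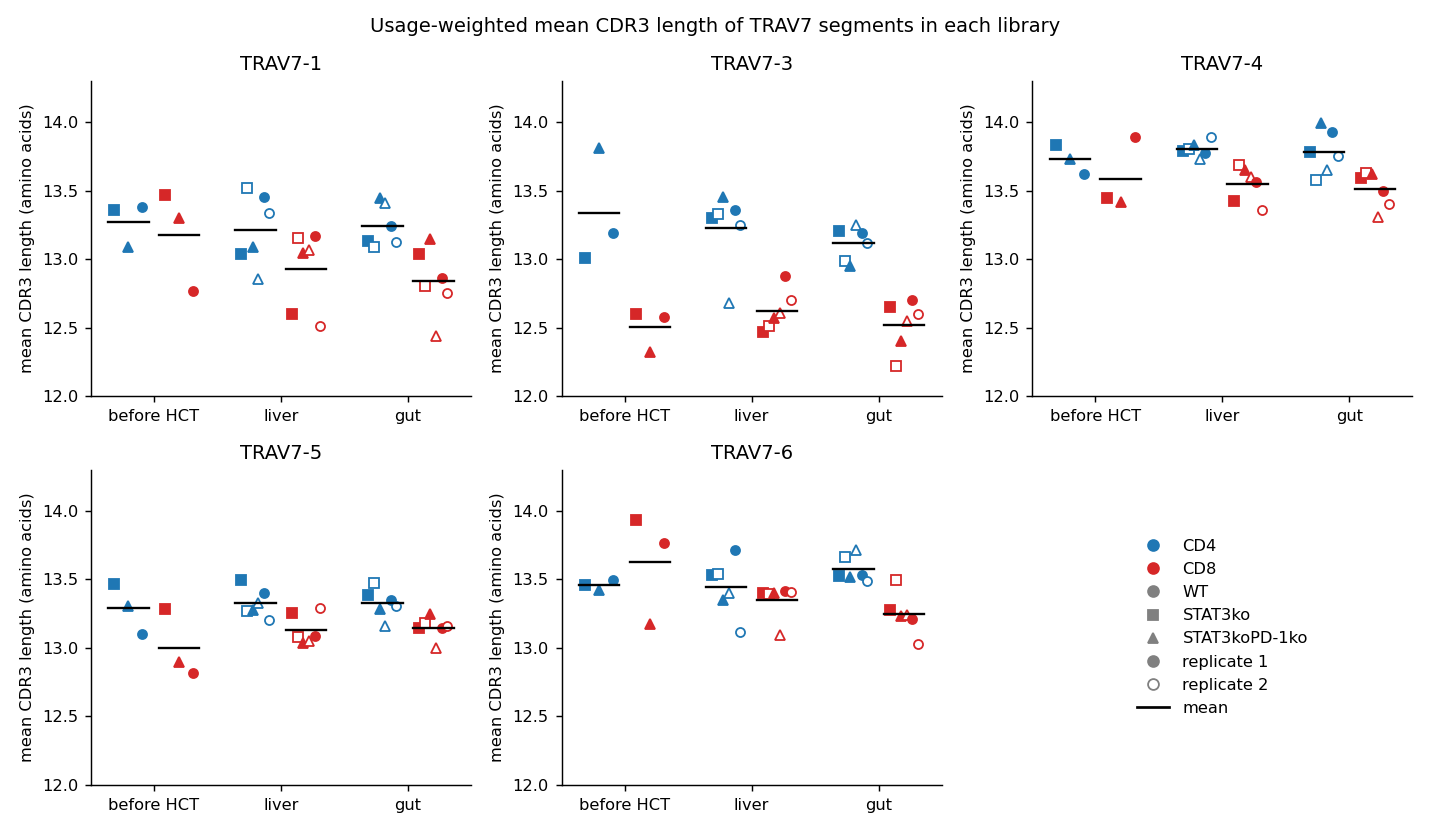
Usage-weighted mean CDR3 length in amino acids of 5 TRAV7 members in each of 30 libraries, by tissue, cell type (color), genotype (symbol) and replicate number (filled or open), with the mean of each tissue as a line. By the V names of each table, TRAV7-3 is longer in CD4 libraries, at a median of 13.2 against 12.6, and TRAV7-4 lies highest, at 13.8 in CD4 cells.

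The comparison of gut with liver asked whether the members were used differently in the target tissues. It lies within 1 table, so that a CDR3 has the same V name in all libraries compared, though reads of other V segments with that CDR3 may be listed with it. In CD4 cells 7 of 46 segments (15.2%) differed, and of the 5 members tested 1 did. TRAV7-5 was higher in gut by 0.49 ± 0.15 (SE, log2 scale, limma adjusted p = 0.030). The liver libraries of WT, STAT3ko and STAT3koPD-1ko stood at 7.46%, 6.85% and 5.53% for number 1 and at 6.67%, 5.85% and 5.95% for number 2. The gut libraries stood at 7.07%, 8.14% and 6.75% for number 1, within or just above the liver values, and at 9.31%, 12.4% and 11.7% for number 2, above every other library. Within number 1 the difference was 0.15 (adjusted p = 0.53) and within number 2 it was 0.84, as fits added after the data had been seen.

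The gut replicate 2 libraries had the lowest listed share, 81.6% to 83.5% in CD4 cells. In them the 10 most frequent TRAV7-5 clonotypes held 1.56% to 3.34% of a library and the remaining ones 7.74% to 9.10%, against 0.735% to 1.06% and 5.69% to 7.19% in gut replicate 1. With each clonotype counted once the difference between gut and liver was 0.13 (adjusted p = 0.18), and as a share of all reads it was 0.36 (adjusted p = 0.074). Of 12 fits with 1 library left out, 7 did not pass, with adjusted p-values up to 0.11 and differences of 0.38 to 0.50. These were the fits without any 1 of the 3 gut replicate 2 libraries and without any 1 of the 4 STAT3ko and STAT3koPD-1ko liver libraries. What part the listed share had in it was not tested. Deviations from the mean of each tissue and genotype were correlated between CD4 gut libraries of the same number (r of 0.32 to 0.63). The 3 gut replicate 2 libraries may thus not be independent.

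The other members did not pass in CD4 cells. TRAV7-4 had a difference of 0.25 ± 0.12 (adjusted p = 0.17), with 2.67% to 3.26% in gut and 1.80% to 3.01% in liver. TRAV7-6 (-0.076 ± 0.12), TRAV7-3 (0.038 ± 0.13) and TRAV7-1 (-0.031 ± 0.14) were near 0. In CD8 cells 5 of 41 segments (12.2%) differed and 0 of the 3 members tested by limma, none of them also at an unadjusted p under 0.05. TRAV7-5 had 3.75% to 4.75% in liver and 4.20% to 6.13% in gut, with the gut replicate 2 libraries highest of the day 6 libraries at 5.21%, 6.13% and 5.55% (0.19 ± 0.10, adjusted p = 0.16). The difference between cell types in the gut effect on TRAV7-5 was 0.30 ± 0.19 (adjusted p = 0.43), in a fit where 1 of 43 segments (2.33%) and 0 of 4 members passed. For mean TRAJ number between gut and liver, limma called 0% of segments in either cell type, with 3 of 46 segments in CD4 cells and 1 of 41 in CD8 cells at an unadjusted p under 0.05. The former included TRAV7-1 in CD4 cells, at -3.40 ± 0.92 (adjusted p = 0.095). It passed within number 1 libraries (-3.98, adjusted p = 0.029), without WT liver replicate 2 (-4.21, adjusted p = 0.0053) and without WT gut replicate 2 (-4.08, adjusted p = 0.014). With each clonotype counted once it turned to 0.13 (adjusted p = 0.95), and adjusted p-values without single libraries ran up to 0.29.

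Day 6 libraries were compared with those labelled before HCT, which have 1 library of each genotype. In CD4 cells limma called 0 of 47 segments (0%), with 8 at an unadjusted p under 0.05 and none of them among the 5 members. TRAV7-5 stood at 6.68%, 7.21% and 5.16% before HCT in WT, STAT3ko and STAT3koPD-1ko, and the mean of liver and gut was higher by 0.26 ± 0.16 (adjusted p = 0.31). In CD8 cells 2 of 41 segments (4.88%) were called and 0 of 3 members. TRAV7-4 was at 1.92%, 1.36% and 1.92% before HCT (0.23 ± 0.12, adjusted p = 0.34) and TRAV7-3 at 1.35%, 1.26% and 1.36% (-0.21 ± 0.12, adjusted p = 0.41). TRAV7-6, below the usage minimum in CD8 cells, had 0.282%, 0.415% and 0.275% before HCT against 0.382% to 0.501% on day 6, and its difference in a fit without the minimum was 0.33 ± 0.086 (adjusted p = 0.13).

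Genotypes were compared within the day 6 libraries. No member was called in any of the 6 comparisons. In CD4 cells limma called 0% of 46 segments for STAT3ko against WT, for STAT3koPD-1ko against STAT3ko and for STAT3koPD-1ko against WT, with 0, 1 and 3 segments at an unadjusted p under 0.05 and no member among them. Member differences lay between -0.27 and 0.22, with standard errors of 0.14 to 0.19. In CD8 cells 0%, 2.44% and 0% of 41 segments were called by limma in the same order, with 5, 4 and 3 at an unadjusted p under 0.05. The member with the lowest unadjusted p was TRAV7-3, at 0.826% to 1.25% in the 4 WT libraries, 1.20% to 1.39% in STAT3ko and 1.00% to 1.39% in STAT3koPD-1ko. It was higher in STAT3ko than WT by 0.35 ± 0.13 (limma adjusted p = 0.22), and 0.48 (adjusted p = 0.047) without the WT liver replicate 1 library. Without other single libraries the difference went down to 0.28 (adjusted p = 0.49), and with each clonotype counted once it was 0.035 (adjusted p = 0.88). TRAV7-5 differed by -0.067 ± 0.12 between these genotypes in CD8 cells and by 0.077 ± 0.19 in CD4 cells.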

How the data were processed

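CDR3 regions of TCRA transcripts were amplified by the authors with a commercial 5' kit for mouse TCR, sequenced as paired reads, assembled with MiXCR and joined by CDR3 amino acid sequence with VDJtools, in 1 table for each cell type, which gives each CDR3 protein a single V and J name. The deposited values are fractions of the reads of a library, formed before the join, and the authors' listing leaves out clonotypes of a single joined library. Another deposited column, the number of joined libraries that hold a clonotype, served only for an alternative. The labels name mm10, the build of the GENCODE annotation used here (GRCm38). TRAV7 segments were matched by name.

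Groups came from the labels. Fractions were summed per V segment and divided by the listed total. V usage was fitted with limma 3.58.1 (R 4.3.3) on log2(percent + 0.1) for segments of at least 0.5% mean usage in the fit, V-J pairs on log2(percent + 0.01) from 0.05%, and TRAJ number and CDR3 length untransformed, with Benjamini-Hochberg adjustment over all features of a fit and a threshold of 0.05. Covariates were tissue and genotype. The scripts were tested on simulated data. All 6 members are described, with the most used V-J pair and clonotype of each table (for TRAV7-2, whose usage was near 0, named only by the J segment) and up to 3 called pairs per member by size. Pseudocounts, filters, counting rules, pairing and single libraries were varied, and, after the data had been seen, the V and J names of CDR3 proteins listed in both tables. The members and lists were chosen with earlier results of these data known. The TCRB tables were not used. All 15 columns of each table were mapped.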

Additional observations from a re-analysis of the deposited data

Results flagged for a closer look

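Values of a member in the 6 liver or 6 gut libraries of a cell type were screened for a library far from the rest by the gap of the highest or lowest value to its neighbour. Of 60 such groups 8 had one, where chance gives about 1 in 20. For usage, TRAV7-1 was at 0.838% in CD4 gut WT replicate 2 (the others 0.394% to 0.513%) and at 0.741% in CD4 liver STAT3ko replicate 1 (the others 0.460% to 0.523%). TRAV7-4 was at 1.77% in CD8 gut STAT3koPD-1ko replicate 2 (the others 2.08% to 2.26%).

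For mean TRAJ number, TRAV7-1 stood at 32.1 in CD8 gut STAT3koPD-1ko replicate 2 (the others 21.6 to 24.8), TRAV7-4 at 25.4 in CD8 gut STAT3ko replicate 1 (the others 23.6 to 24.2) and TRAV7-5 at 27.2 in CD8 gut STAT3koPD-1ko replicate 1 (the others 30.3 to 31.4). For CDR3 length, TRAV7-3 was at 12.7 amino acids in CD4 liver STAT3koPD-1ko replicate 2 (the others 13.2 to 13.5) and TRAV7-6 at 13.1 in CD8 liver STAT3koPD-1ko replicate 2 (the others 13.4).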

How the results depend on the processing

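The number of members called stayed within 1.5 times of that reported in most alternatives, apart from the names given to CDR3 proteins. For gut against liver usage in CD4 cells it fell from 1 to 0 without the filter on low usage, as a share of all reads, with each clonotype counted once and in number 1 libraries only, and ran from 0 to 1 when single libraries were left out. For CD4 against CD8 it fell from 4 to 2 for usage centred on the median segment, where TRAV7-4 turned to -0.29 and TRAV7-5 to -0.022, and from 2 to 1 for mean TRAJ number with each clonotype counted once. In that counting TRAV7-1 turned to 0.13 for gut against liver mean TRAJ number in CD4 cells and TRAV7-3 with TRAJ27 to 0.10. The former comparison went from 0 to 1 in number 1 libraries only and ran from 0 to 1 without single libraries (TRAV7-1 then passed without WT liver replicate 2 or WT gut replicate 2), as did STAT3ko against WT usage in CD8 cells. With libraries labelled before HCT only, TRAV7-4 was higher in CD4 cells by 0.41 but did not pass (adjusted p = 0.11). The cause of these changes was not tested. With 1 set of V and J names for CDR3 proteins of both tables, members called for CD4 against CD8 mean TRAJ number fell from 2 to 1 (CD4 names) and 0 (CD8 names), and member pairs from 43 to 33 and 26. On CDR3 proteins of 1 table only they fell to 0 and 28. With the CD4 names TRAV7-4 turned to -0.16 for CDR3 length, and TRAV7-3 with TRAJ27 and TRAJ34 to 0.86 and 0.59. With the CD8 names TRAV7-3 turned to 0.013 for usage, TRAV7-6 to 0.27 for TRAJ number, TRAV7-4 to -0.060 for CDR3 length, TRAV7-3 with TRAJ34 to 0.24 and TRAV7-4 with TRAJ22 to 0.57. On CDR3 proteins of 1 table only TRAV7-3 turned to 0.16, TRAV7-4 to -0.28 for CDR3 length, and TRAV7-3 with TRAJ27 and TRAJ34 to 0.92 and 0.88. These fits differ from the reported ones in the names or the CDR3 proteins alone.

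With a replicate block, which pairs CD4 with CD8 libraries of 1 tissue, genotype and number or adds the number as a term, the count of called members did not change in any comparison (4 for CD4 against CD8 usage, 43 for V-J pairs, 1 for gut against liver in CD4 cells). The numbers were not shown to pair the libraries, since correlations of deviations were above 0.1 in 4 of 6 CD4 and CD8 pairs of 1 tissue, genotype and number and in 18 of 30 CD4 and CD8 pairs of another tissue or genotype. They were above 0.1 in 8 of 15 pairs within CD4 cells and 6 of 15 within CD8 cells. Between gut libraries of the same number they ran from 0.066 (CD4 STAT3ko with CD8 WT) to 0.63 (CD4 STAT3ko with CD4 STAT3koPD-1ko), across genotypes and cell types. Fractions without read counts give no interval, so differences of rare segments such as TRAV7-1 cannot be set against counting error.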

Other observations

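The 7 D and N copies together were used about as much as the 6 members. They summed to 9.23% to 15.9% of CD4 libraries and 5.72% to 8.49% of CD8 libraries, against 10.1% to 17.2% and 7.09% to 10.2% for the members, and both sums were higher in the CD4 library of all 15 matched pairs. By the names of each table, 5 of the 6 copies tested passed the limma test of CD4 against CD8 usage, where 86.7% of all segments did. TRAV7D-2 (1.61 ± 0.064 SE, log2 scale, adjusted p = 2.8e-21), TRAV7D-4 (0.67 ± 0.097, adjusted p = 1.5e-07), TRAV7N-4 (0.42 ± 0.13, adjusted p = 0.0036) and TRAV7D-5 (0.31 ± 0.095, adjusted p = 0.0029) were higher in CD4 cells. TRAV7D-3 was lower in CD4 cells (-0.72 ± 0.094, adjusted p = 2.3e-08), as was TRAV7-3, from which it differs at 2 bases. TRAV7N-4 reached the usage minimum only through CD4 libraries and TRAV7D-3 only through CD8 libraries, and without the minimum their adjusted p-values were 0.013 and 5.2e-07. Centred on the median segment, TRAV7D-2 stayed higher in CD4 cells (0.95) and TRAV7D-3 lower (-1.39), TRAV7D-5 turned to lower (-0.35, adjusted p = 0.0012), TRAV7N-6 was lower (-0.63, adjusted p = 3.1e-06), and TRAV7N-4 (-0.25, adjusted p = 0.069) and TRAV7D-4 (0.00092, adjusted p = 0.99) did not pass. TRAV7N-6 had a mean of 1.03% in CD4 cells and 0.981% in CD8 cells, and TRAV7N-5 was at most 0.228%. With 1 set of names for CDR3 proteins of both tables and on those of 1 table only, TRAV7D-2 (1.17 to 2.16) and TRAV7D-4 (0.60 to 0.89) stayed higher in CD4 cells and TRAV7D-3 (-0.70 to -0.28) lower, while TRAV7N-4 turned to -0.26 and TRAV7D-5 to -0.076 with the CD4 names. With the names of each table and the copies added to the member of the same number, the difference was 1.61 for number 2, -0.68 for number 3, 0.49 for number 4, 0.57 for number 5 and 0.34 for number 6.

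Over the 30 libraries and the 44 other segments of at least 0.5%, the segment most like TRAV7-5 in log2 usage was TRAV7D-4 (Pearson r = 0.85), the one most like TRAV7-3 was TRAV12-2 (r = 0.79) and the one most like TRAV7-4 was TRAV5-4 (r = 0.71). These describe libraries of both cell types, which share the step between CD4 and CD8 and the V names of each table, and percentages that share a total.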
